A study of Mus musculus with 8 samples.

Results

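Structural cluster 1 is a set of 1347 cells, 6.48% of the 20778 cells measured and 24.4% of the 5514 structural cells, to which the authors' table of cells gives the number 1 among its structural clusters. Membership was read from that table, with no further choice of cells by measured values. The authors drew the clusters from these same counts. The cells came from left lung grafts taken 1 month after orthotopic transplantation, with 10000 cells loaded per graft for droplet sequencing of transcript 3′ ends. Each graft is 1 mouse and 1 library, so the mouse is the replicate throughout. The p-values set differences against the spread between these mice, which includes counting error.

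In the B6→B6 group (n = 5), donor and recipient were C57BL/6 (B6) mice, a transplant without a mismatch. In the HLA→B6 group (n = 3), the donor carried a transgene for human HLA-A2.1 (line 1Enge/J) on the C57BL/6 background and the recipient was B6. Such grafts serve as a model of bronchiolitis obliterans syndrome, a form of chronic rejection that scars the small airways. All mice were male, none received immunosuppression, and their ages were not analysed here. The tables used here do not tell whether a cell of a graft came from the donor or the recipient.

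Lung capillaries are lined by at least a pair of endothelial cell kinds. General capillary cells express genes such as Gpihbp1, Plvap, Cd93 and Ptprb and can renew the vessel wall, whereas aerocytes, marked by Car4, Ednrb and Emp2, form the thin surface for gas exchange. Endothelial cells can display peptides on MHC class I and, under IFN-γ, on MHC class II, through which T cells see them. Fabp4, Rbp7 and Timp4, given as markers of cluster 1, are known from capillaries of heart, muscle and fat, where Fabp4 carries fatty acids and Rbp7 retinol.

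Cluster 1 bears an epithelial name in the table of cells, and the data go against it. At an equal depth of 500 unique molecular identifiers (UMIs, each 1 transcript molecule) per cell, a UMI of Pecam1, the adhesion molecule of endothelial junctions, was found in 49.3% ± 4.22 of its cells (mean ± SD over 8 mice). Cldn5, a tight junction protein of endothelium, reached 63.9% ± 10.2 and Ramp2, the partner of the adrenomedullin receptor, 66.7% ± 11.7. The epithelial adhesion molecule Epcam reached 0.752% ± 1.95, and the level in T cells, which lack it, was 0.536% and the highest mouse, B6→B6 mouse 1 at 5.56%, had 15 cells of that depth. The keratin gene Krt8 was at 0% in all 8 mice. Of 16 epithelial genes, 0 reached 10% of cluster 1 cells. At full depth, 4 of the 1347 cells had UMIs of at least 3 of these genes, against 1210 cells (89.8%) with at least 3 of 12 pan-endothelial genes. The epithelial list leaves out Scgb1a1 and Sftpc, which are read apart below with the free RNA genes. At 500 UMIs, Scgb1a1 was in 9.77% of cluster 1 cells as a mean over mice and in 24.7% pooled over cells. The cells are therefore called by their cluster number here.

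Several of the genes that differed between the groups, described further on, belong to antigen presentation, and 4 of their promoters are shown because they carry short motifs known from such genes. RefSeq promoters (GRCm38.p6), each from 250 bases before to 50 after the start, were found for 10 of the 16 genes that passed the test. The letters GATTGG, the core of the Y box of MHC promoters, were searched on both strands. These genes have 14 promoters in the table. The letters stand in 7 of the 14 (1 each of H2-Aa, H2-DMa, H2-DMb1, H2-Q7, Tap1, Fth1 and Junb) and in 16.1% of all 32851 promoters. The core of the interferon-stimulated response element, GAAA followed after any 2 bases by GAAA, stands in 1 of the 14, of Gbp2, and in 3.44% of all promoters. Capitals mark the match in each sequence, written 5′ to 3′ on the strand of the gene.
H2-Aa (α chain of the MHC class II molecule I-A, chr17:34287774-34288073, minus strand): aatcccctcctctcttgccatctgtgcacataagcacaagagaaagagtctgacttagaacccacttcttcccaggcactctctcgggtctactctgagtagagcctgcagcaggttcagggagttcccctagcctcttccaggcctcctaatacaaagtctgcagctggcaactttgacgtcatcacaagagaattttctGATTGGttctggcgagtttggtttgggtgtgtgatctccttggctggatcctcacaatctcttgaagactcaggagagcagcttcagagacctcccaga
H2-DMb1 (β chain of the peptide loader H2-DM, chr17:34152941-34153240, plus strand): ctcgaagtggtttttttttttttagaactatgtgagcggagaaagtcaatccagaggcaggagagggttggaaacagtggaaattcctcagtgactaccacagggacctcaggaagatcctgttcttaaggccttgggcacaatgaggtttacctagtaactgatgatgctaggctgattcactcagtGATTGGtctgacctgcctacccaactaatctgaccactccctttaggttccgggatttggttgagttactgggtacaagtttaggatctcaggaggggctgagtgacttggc
H2-Q7 (a class Ib molecule, chr17:35438905-35439204, plus strand): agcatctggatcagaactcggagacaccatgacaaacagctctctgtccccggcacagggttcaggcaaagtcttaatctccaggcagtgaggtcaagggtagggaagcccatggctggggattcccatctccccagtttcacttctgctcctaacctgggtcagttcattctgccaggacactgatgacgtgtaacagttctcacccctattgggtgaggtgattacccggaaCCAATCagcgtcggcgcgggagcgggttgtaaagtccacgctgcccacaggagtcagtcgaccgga
Gbp2 (an interferon-induced GTPase, chr3:142620413-142620712, plus strand): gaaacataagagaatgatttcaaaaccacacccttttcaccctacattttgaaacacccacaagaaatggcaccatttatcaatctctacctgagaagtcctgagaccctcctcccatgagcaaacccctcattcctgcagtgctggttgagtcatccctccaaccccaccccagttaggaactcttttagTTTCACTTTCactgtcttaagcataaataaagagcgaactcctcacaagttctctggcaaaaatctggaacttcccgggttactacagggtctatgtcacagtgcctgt
In H2-Aa and H2-DMb1 the match lies on the strand of the gene, with its first base at -49 and -62 from the start. In H2-Q7 and Gbp2 it lies on the other strand, with its first base at -16 and -59. These matches describe the sequence and are not shown to be sites.

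The cells of cluster 1 were spread unevenly over the mice. Mice 1 to 5 of the B6→B6 group gave 19, 13, 92, 602 and 17 of these cells, and mice 1 to 3 of the HLA→B6 group gave 322, 164 and 118. B6→B6 mouse 4 thus held 44.7% of the cluster and 81.0% of its 743 B6→B6 cells. The summed cells held 24502, 14881, 96974, 683941 and 20551 in the B6→B6 mice and 277227, 143835 and 124745 in the HLA→B6 mice (UMIs, in the order of the mice). A single UMI was therefore worth 40.8, 67.2 and 48.7 CPM (counts scaled to a common library total) in B6→B6 mice 1, 2 and 5, and 1.46 CPM in mouse 4. A value of 0 in those 3 shallow mice says little about genes at low levels.

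Some barcodes recurred between mice, 1014 cells in all, and most lay among B6→B6 mice 1, 2 and 3 and HLA→B6 mouse 2 (called linked libraries below). In cluster 1, 53 cells had a barcode also seen in a different mouse, and for 4 barcodes both cells lay in cluster 1. Scrublet marked 15 cells of cluster 1 (1.11%) as doublets, beside 1.24% of all cells, and they were kept. Whether the counts used are those before or after removal of free RNA is not stated in the sources, so T cells of the same mice are given below for comparison. Their values can stand for a level of free RNA only for genes that T cells do not express. For genes that T cells express themselves, such as Junb, Fth1 and Tap1, they give no such level.

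Among endothelial genes, cluster 1 lay close to cluster 0 and apart from cluster 2. The clusters were drawn from these same counts, so differences between them are described and carry no test. Gpihbp1, which holds lipoprotein lipase on the capillary wall, had a UMI in 55.7% ± 6.16 of the cells in cluster 1, 65.99% in cluster 0, 16.8% in cluster 2 and 0.205% in T cells. In cluster 1 its share ran from 48.9% in HLA→B6 mouse 2 to 64.7% in B6→B6 mouse 4. Plvap, the protein of the fenestral diaphragm, stood at 37.5%, 44.03% and 1.96% in clusters 1, 0 and 2. Cd93, a receptor of endothelial adhesion, stood at 39.9% ± 12.8, 37.8% and 2.77%, and the phosphatase gene Ptprb at 36.6% ± 7.47, 41.4% and 2.17%. Of 8 general capillary genes, 5 (Gpihbp1, Plvap, Cd93, Ptprb and Aplnr) were in more cells of cluster 1 than of cluster 2 in each of the 8 mice, and 850 cells of cluster 1 (63.1%) had UMIs of at least 3 of the list.

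All 7 aerocyte genes ran the other way, lower in cluster 1 than in cluster 2 in each of the 8 mice. Car4, a carbonic anhydrase of the capillary surface, stood at 7.70% ± 5.15 in cluster 1, 13.2% in cluster 0 and 85.2% in cluster 2. Emp2, a membrane protein, stood at 4.54% ± 2.89, 3.75% and 72.2%, and Ednrb, the endothelin B receptor, at 0.343% ± 0.499, 0.130% and 31.97%. In cluster 1, 15 cells (1.11%) had UMIs of at least 3 aerocyte genes. Cluster 1 is thus general capillary-like by these markers, and cluster 0 carries the same ones.

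**Figure D1:**
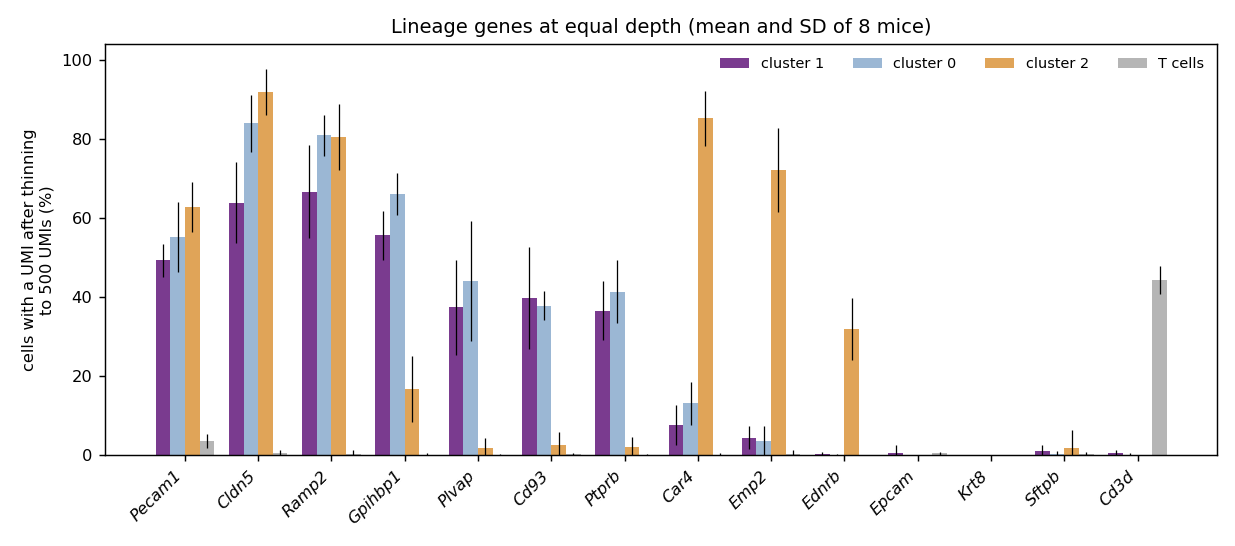
Share of cells (%) with at least 1 UMI of each lineage gene after thinning to 500 UMIs, in clusters 1, 0 and 2 and in T cells; bars are means of 8 mice and lines 1 SD. Clusters 1 and 0 carry Gpihbp1, Plvap, Cd93 and Ptprb, cluster 2 carries Car4, Emp2 and Ednrb, and Epcam (0.752%) and Krt8 (0%) are at or near 0 in cluster 1.

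Genes of other vessels were found in fewer cells. Of 11 artery genes, 3 reached 10% of cluster 1 cells, namely the chemokine gene Cxcl12 (20.7% ± 8.58), the transcription factor Sox17 (12.9% ± 3.26) and the Notch target Hey1 (12.5% ± 7.14). Of 9 vein genes, the protease gene Prss23 reached it (13.4% ± 5.62), and Vwf, the carrier of a clotting factor, stood at 5.06% ± 2.44. Prox1, the defining factor of lymphatic endothelium, had a UMI in 0 of the 1347 cells, which allows a share of up to 0.223% of cells with a UMI. Of 6 lymphatic genes, 0 reached 10% of cells, and no cell had UMIs of 3 of them.

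Markers of blood and stromal cells were sparse in cluster 1. The T cell, B cell, neutrophil, fibroblast, platelet, and pericyte and smooth muscle lists each had 0 members in 10% of cells. Of their genes, 3 or more were seen in 1, 1, 1, 2, 2 and 0 of the 1347 cells. Of the macrophage and monocyte list, Ctss, a lysosomal protease, was the most frequent (4.33% ± 6.78, beside 5.93% in T cells), 2 cells had at least 3 genes, and no member was at 0 over the cluster. Summed, that list took 0% to 0.00775% of UMIs in the B6→B6 mice and 0.0238% to 0.0959% in the HLA→B6 mice, which do not overlap. The red blood cell list took 0% to 0.0681% and 0.174% to 0.991%, and the free RNA genes of the SoupX list (the genes used to estimate free RNA) took 0.715% to 1.65% and 2.44% to 5.04%, both again without overlap. Their part in the results between the groups was not tested.

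The genes with the largest differences from cluster 0 upward were not lineage genes. Apart from ribosomal, mitochondrial and free RNA genes, 38 genes were in more cells of cluster 1 and 121 in fewer in each of the 8 mice. Fth1, the ferritin heavy chain, stood at 38.1% ± 14.3 against 15.9%, and Tmsb4x, an actin-binding peptide, at 83.5% ± 8.69 against 62.4%. The elongation factor Eef1a1 (59.99% ± 6.05 against 45.4%), the chromatin protein Ptma (57.8% ± 5.80 against 43.2%) and β-actin, Actb (67.1% ± 6.82 against 54.2%), followed. Tpt1, Cox7c, Chchd2 and Serf2 were also among the first 10, with mean differences from 9.003 to 12.2 percentage points. Of 101 ribosomal protein genes, 67 were in more cells of cluster 1 in each mouse and 0 in fewer.

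Downward, several of the first 10 were genes of lung endothelium. Cldn5 stood at 63.9% ± 10.2 against 83.96%, and Tmem100, a target of BMP9 and ALK1 signaling, at 47.1% ± 16.3 against 66.9%. Icam2, a ligand of leukocyte integrins, stood at 35.9% ± 6.43 against 53.1%, and Foxf1, a transcription factor of lung capillaries, at 31.8% ± 6.09 against 45.8%. Malat1, a long RNA retained in the nucleus, stood at 82.9% ± 13.1 against 99.1%. Lyve1, a hyaluronan receptor of lymphatic and some lung capillary endothelium (25.9% ± 15.1 against 40.5%), BC028528, Cd9, Ramp2 and Tspan7 completed them, the last 4 with mean differences from -15.95 to -14.04 points. Endothelial genes of cluster 0 were thus present in cluster 1, in fewer cells at the same depth.

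Measures of RNA quality moved with that difference. The median share of mitochondrial UMIs per cell was 1.72% to 4.70% over the mice in cluster 1 and 0.284% to 2.68% in cluster 0, and it was higher in cluster 1 in 7 of 8 mice, B6→B6 mouse 5 apart. The median share of ribosomal protein UMIs was 9.35% to 12.6% in cluster 1 and 4.55% to 7.48% in cluster 0, without overlap. The median depth per cell was 886 UMIs and 599 genes in cluster 1, against 1068.5 UMIs in cluster 0 and 1869 UMIs in cluster 2. The part of RNA quality in the division between clusters 0 and 1 was not tested. Between the groups, the median mitochondrial share in cluster 1 was 1.72% to 2.84% in the B6→B6 mice and 3.05% to 4.70% in the HLA→B6 mice, which do not overlap.

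**Figure D2:**
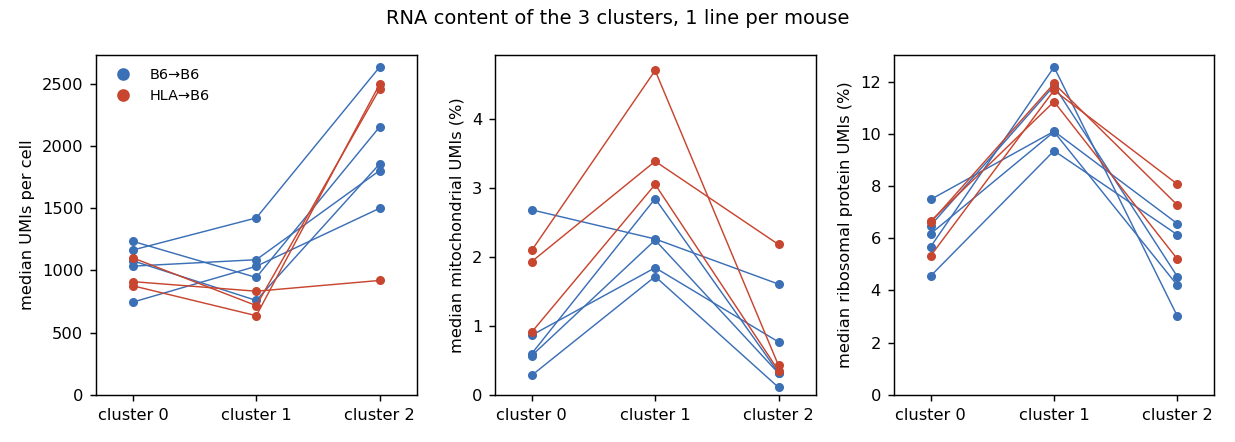
Median UMIs per cell, median share of mitochondrial UMIs (%) and median share of ribosomal protein UMIs (%) in clusters 0, 1 and 2, with 1 line per mouse (blue, B6→B6; red, HLA→B6). The ribosomal share of cluster 1 lies above those of clusters 0 and 2 in all 8 mice, and its mitochondrial share above that of cluster 0 in 7 of 8 mice.

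Against cluster 2, the leading genes included those of the capillary kinds. In all, 192 genes were in more cells of cluster 1 and 313 in fewer in each of the 8 mice. The first 10 upward held Gpihbp1, Cd93, Plvap and Ptprb, with the actin-binding Tmsb10 (66.4% ± 14.7 against 13.3%), the interferon-induced Ifitm3 (73.5% ± 6.25 against 29.3%), Tm4sf1 (46.9% against 12.2%), Tmsb4x (83.5% against 51.1%), the matrix protein Sparc (38.7% against 10.2%) and the lipid transfer protein Pltp (47.1% against 27.3%). Downward, beside Car4 and Emp2, stood Igfbp7, a secreted binder of insulin-like growth factor (21.3% ± 9.61 against 94.1%), AW112010 (8.89% against 62.9%), the cytochrome P450 gene Cyp4b1 (21.1% against 74.7%) and the chaperone clusterin, Clu (8.22% against 55.1%). Tspan13, Icam2, Selenop and Ptp4a3 completed them, with mean differences from -45.4 to -37.9 points.

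Free RNA genes were read apart. Scgb1a1, the club cell secretoglobin, was at 37.03% of cluster 1 cells in B6→B6 mouse 4, where 26.01% of T cells had it too, and at 24.3% in HLA→B6 mouse 1, where 2.72% of T cells had it. As a level, T cells of HLA→B6 mouse 1 held 3066 CPM and cluster 1 923 CPM. In B6→B6 mice 1, 2 and 5 cluster 1 was at 0%. The surfactant gene Sftpc had a UMI in 5.02% ± 5.85 of cells in the cluster, beside 1.46% in T cells. In the 68 cells of structural cluster 8, by contrast, Krt8 was in 31.6% of cells and Epcam in 23.4%.

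The 3 marker genes were not general features of the cluster. Fabp4 had a UMI in 46 of 1347 cells. Its UMIs numbered 15, 9, 11, 1062 and 0 in the B6→B6 mice and 14, 12 and 1 in the HLA→B6 mice. The share of cells at 500 UMIs was 2.93% ± 2.98 for Fabp4, 1.92% ± 2.67 for Rbp7 and 0.182% ± 0.516 for Timp4.

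Nearly all of these transcripts lay in 25 cells (1.86% of the cluster) with at least 5 Fabp4 UMIs, a limit set after the values were seen, so what follows is a description with no test. They held 1099 of the 1124 Fabp4 UMIs (97.8%), with a median of 19 and at most 245 per cell, and 21 further cells had 1 to 4. B6→B6 mouse 4 gave 20 of them, 3.32% of its cluster 1 cells. B6→B6 mice 1, 2 and 3 and HLA→B6 mice 1 and 2 gave 1 each, and the other two gave 0. Scrublet marked 0 of the 25, and 5 had a barcode also seen in a different mouse. They held a median of 1118 UMIs, while the remaining cells of the cluster held 882, and 140 cells outside the cluster had at least 5 Fabp4 UMIs.

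These 25 cells had endothelial genes and a set of genes scarce in the rest. Cdh5, the cadherin of endothelial junctions, stood at 1177 against 1142 CPM in the rest of the cluster, and Gpihbp1 at 3208 against 2142 CPM. Other endothelial genes were present but lower, with Pecam1 at 765 against 1278 CPM and Egfl7 at 1148 against 2075 CPM. Ramp2 stood at 1413 against 3210 CPM, Cldn5 at 1413 against 3634 CPM and Plvap at 265 against 914 CPM. Rbp7 had 97 of its 100 UMIs there, in 17 of the 25 cells, and Timp4, an inhibitor of metalloproteases, 47 of its 48 UMIs, in 14 cells. Tcf15, a transcription factor known from heart and muscle capillaries as a partner of Meox2, stood at 1059 against 16.3 CPM, C1qtnf9 at 853 against 4.44 CPM, and the glycerol channel Aqp7 at 529.7 against 0.739 CPM. Cd36, the fatty acid receptor, stood at 4267 against 1801 CPM, and Mgll, a lipase of monoacylglycerols, at 1295 against 105 CPM.

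Genes found in much of the rest of the cluster were scarce in the same cells. Foxf1 had 0 UMIs in the 25 cells and 1347 in the others, where 51.1% of cells had it, and Lyve1 had 0 and 1068. Tmem100 stood at 88.3 against 2482 CPM, and Calcrl, the adrenomedullin receptor, at 58.9 against 1229 CPM. Cd74, the invariant chain of MHC class II, stood at 353 against 5993 CPM and H2-Ab1 at 88.3 against 1400.2 CPM. Within B6→B6 mouse 4 alone, Foxf1 stood at 0 CPM in these cells and 1181 CPM in its other cluster 1 cells, and Tcf15 at 927 and 9.13 CPM. No cell type is named from these values.

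The share of cluster 1 did not separate the groups. Of the cells of clusters 0, 1 and 2 together, cluster 1 took 7.39%, 15.7%, 15.01%, 71.4% and 32.1% in the B6→B6 mice and 20.6%, 27.7% and 49.4% in the HLA→B6 mice. B6→B6 mouse 4 was the highest of all and the groups overlapped. The mean difference, HLA→B6 minus B6→B6, was 4.27 percentage points (exact permutation test over 56 splits of the mice, two-sided, p = 0.786, where the smallest p possible is 0.0357). Without B6→B6 mouse 4 the difference was 15.05 points (exact p = 0.171). It turned negative without B6→B6 mouse 1 (-0.956), without HLA→B6 mouse 3 (-4.12) and within the linked and unlinked libraries (-3.11, exact p = 0.875).

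**Figure D3:**
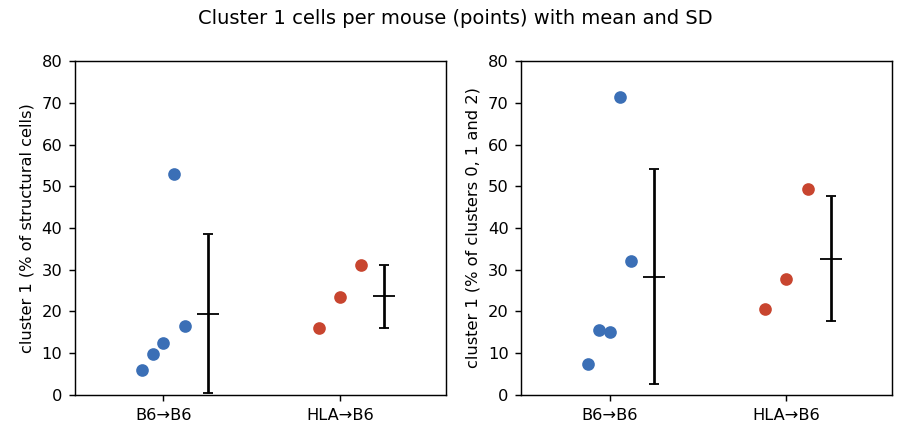
Share of cluster 1 (%) among structural cells (left) and among cells of clusters 0, 1 and 2 (right), 1 point per mouse, with the mean and SD of each group beside the points. B6→B6 mouse 4 (52.9% and 71.4%) lies above all other mice, and the groups overlap.

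Between the groups, the genes that rose in HLA→B6 included 4 of the MHC class II list (H2-Aa, H2-Ab1, H2-DMa and H2-DMb1), 1 of the MHC class I list (Tap1) and 1 of the IFN-γ list (Gbp2). The lists were chosen with earlier results of these data known, so counts of their members are a description. UMIs were summed over the cluster 1 cells of each mouse, and the 8 sums were compared with edgeR's quasi-likelihood test. Of 2348 genes tested, 16 passed an adjusted p of 0.05 (0.681%), 14 of them higher in HLA→B6 (0.596%) and 2 lower (0.0852%), while 180 had an unadjusted p under 0.05. All 16 had groups that did not overlap, as did 93 of all genes in the higher direction (3.96%) and 34 in the lower (1.45%). The median log2 fold change of all genes was 0.04, and 1272 of the 2348 (54.2%) had one above 0. The count of 16 moved to 8 without B6→B6 mouse 1, 6 without mouse 2, 8 without mouse 4, 9 without HLA→B6 mouse 2 and 51 without HLA→B6 mouse 3. With at least 20 cells per mouse, which leaves 5 mice, it was 0, with 213 genes at an unadjusted p under 0.05. Without cells that share a barcode (7 mice) it was 6, of which 5 are among the 16, and with the linked libraries as a block it was 26, of which 15 are. DESeq2 called 14 genes, 10 of them among the 16, and its other 4 were H2-Eb1 (adjusted p = 0.00319), B2m (0.0409), H2-K1 (0.0409) and Jun (0.0269). It did not call Apoe (0.0996), Igkc (0.0643) or Ccnd1 (0.0681) and gave no adjusted p for C1qa, Ifi27l2a and Tap1. In the lists with 0 calls by edgeR given below, DESeq2 called 0 too.

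**Figure D4:**
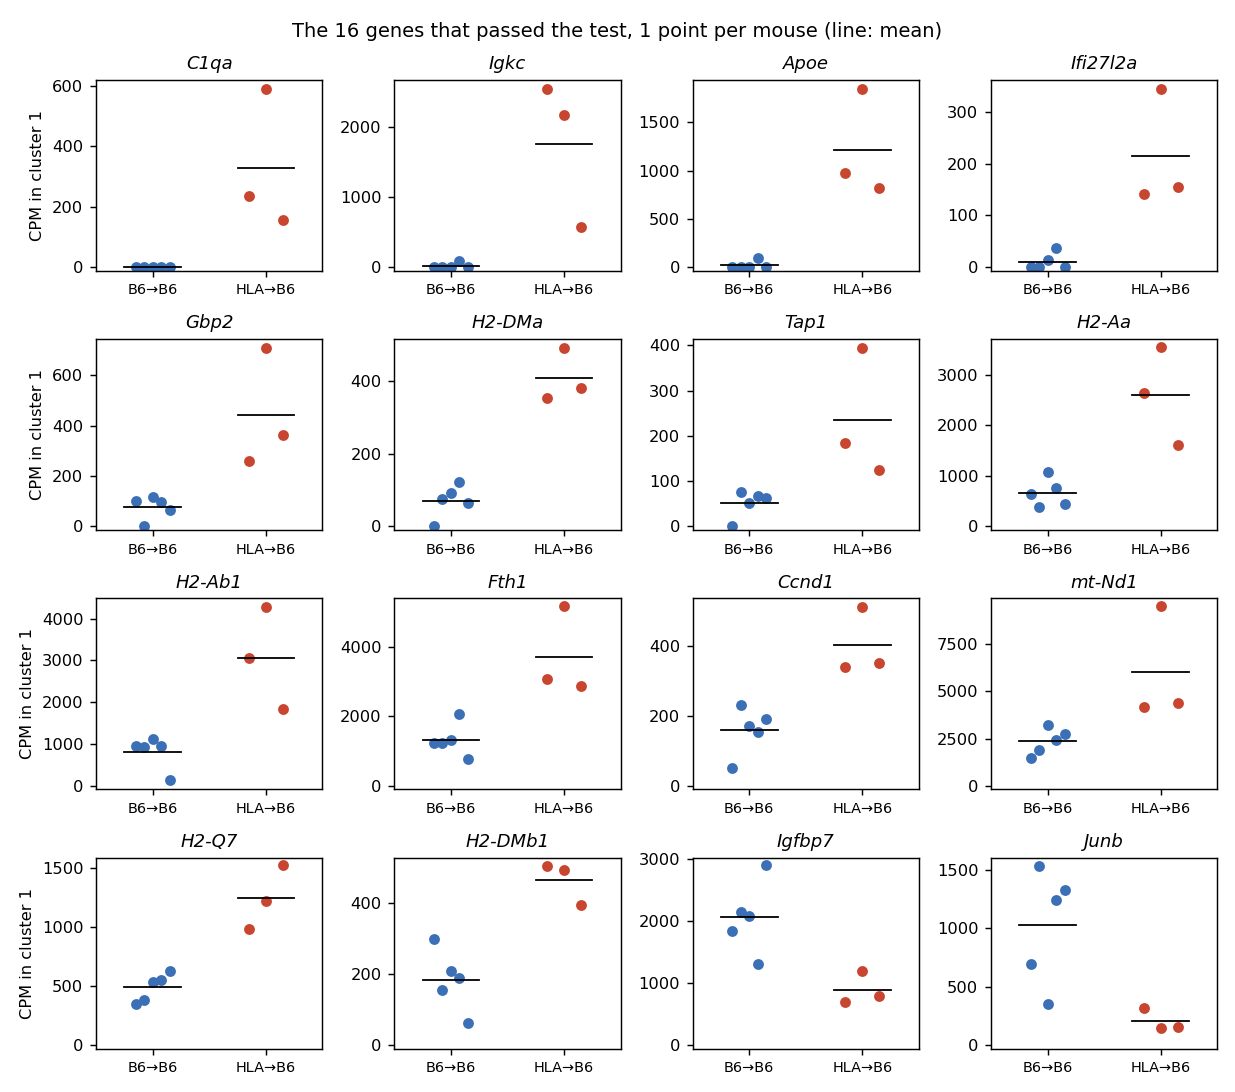
Level in cluster 1 (CPM scaled by TMM, linear axes from 0) of the 16 genes that passed the test, 1 point per mouse (blue, B6→B6, n = 5; red, HLA→B6, n = 3) with the group mean as a line. The groups do not overlap in any of the 16 panels, and C1qa, Apoe and Igkc are at 0 in at least 4 of the 5 B6→B6 mice.

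Of the genes of MHC class II, which show peptides to CD4 T cells, 4 rose in HLA→B6. Of the 7 listed, 6 could be tested and 4 passed, beside 0.596% of all genes tested that passed higher. All 6 had groups that did not overlap, each higher, beside 3.96% of all genes tested. Their median log2 fold change was 1.92. H2-Aa (chr17:34282744-34287823, GRCm38) stood at 646, 384, 1082, 755 and 442 CPM in B6→B6 mice 1 to 5 and at 2637, 3545 and 1614 CPM in HLA→B6 mice 1 to 3. Its lowest HLA→B6 mouse was above the highest B6→B6 mouse, and its log2 fold change was 1.84 ± 0.29 (SE, edgeR adjusted p = 0.00842). H2-DMa (chr17:34119541-34139101), a subunit of the peptide loader, stood at 0, 76.8, 91.3, 123 and 63.2 CPM against 353, 492 and 383 CPM. All HLA→B6 mice were again above all B6→B6 mice, and its log2 fold change was 2.01 ± 0.35 (adjusted p = 0.00842). Both genes passed in each of the 8 fits that left out 1 mouse.

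The partner chain H2-Ab1 (chr17:34257689-34269419) stood at 944, 921, 1108, 954 and 126 CPM against 3057, 4274 and 1842 CPM, with the lowest value, in B6→B6 mouse 5, resting on 2 UMIs. Its log2 fold change was 1.83 ± 0.37 (adjusted p = 0.0476). H2-DMb1 (chr17:34153072-34160230) stood at 298, 154, 209, 188 and 63.2 CPM against 504, 492 and 393 CPM, a log2 fold change of 1.28 ± 0.29 (adjusted p = 0.0467). Both calls were lost without B6→B6 mouse 1, 2, 3 or 4 or HLA→B6 mouse 1 or 2, with adjusted p between 0.0791 and 0.192 for H2-Ab1 and between 0.0584 and 0.281 for H2-DMb1. H2-Eb1, another β chain, stood at 0 to 639 CPM against 1200.2 to 2649 CPM and did not pass (2.33 ± 0.54, adjusted p = 0.138), but passed without B6→B6 mouse 1 (adjusted p = 0.0122). Cd74 stood at 63.2 to 5868 CPM against 6259 to 19369.9 CPM and did not pass either (2.38 ± 0.90, adjusted p = 0.602).

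Without TMM scaling, H2-Aa stood at 0 to 8.91 CPM in T cells of the B6→B6 mice and 2.12 to 17.00 CPM in those of the HLA→B6 mice, against 336 to 856 CPM and 1251 to 2503 CPM in cluster 1. H2-DMb1 stood at 0 to 4.34 CPM and 4.23 to 8.48 CPM in T cells, against 48.7 to 245 CPM and 305 to 386 CPM in cluster 1. For H2-Aa, H2-DMb1 and H2-Ab1 every mouse had more in cluster 1 than any mouse had in T cells. That did not hold for the other 3 in the B6→B6 mice. H2-DMa was at 0 in cluster 1 of mouse 1, where T cells held 17.1 CPM, and H2-Eb1 was at 0 in both there. Cd74 stood at 48.7 CPM in cluster 1 of mouse 5, and T cells reached 106 CPM in HLA→B6 mouse 1. H2-Aa, H2-Ab1, H2-Eb1 and Cd74 stand on the SoupX list, and H2-DMa and H2-DMb1 do not. Whether a removal of free RNA lowered the listed genes in T cells was not tested. The comparison with T cells therefore sets no level of free RNA for the listed genes. Of the SoupX list 17 of 19 genes were tested, and all 17 had a log2 fold change above 0 (median 2.33), beside 54.2% of all genes tested. Of these, 4 passed (H2-Aa, H2-Ab1, Apoe and Igkc), all higher, and 14 had an unadjusted p under 0.05 by edgeR. The groups did not overlap for 12, all higher, beside 3.96% of all genes tested.

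In the MHC class I and immunoproteasome list, 11 of 13 genes were tested and 1 passed, beside 0.596% of all genes tested that passed higher. The groups did not overlap for 7, all higher, beside 3.96% of all genes tested. The median log2 fold change of the list was 0.67. Tap1 (chr17:34187553-34197225), a subunit of the peptide transporter of the endoplasmic reticulum, stood at 0, 76.8, 52.2, 66.3 and 63.2 CPM against 184, 394 and 124 CPM, a log2 fold change of 1.92 ± 0.43 (edgeR adjusted p = 0.0438). Its values in B6→B6 mice 2 and 5 rest on 1 UMI each, and T cells held 70.3 to 158 CPM and 175 to 212 CPM. The call was lost without B6→B6 mouse 1, 2 or 3 (adjusted p between 0.0678 and 0.0850), and Tap1 fell under the filter without B6→B6 mouse 4 or HLA→B6 mouse 1 or 2.

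Other class I genes did not pass by edgeR. B2m, the light chain of class I, stood at 5468 to 7459 CPM against 9446 to 11423 CPM (0.67 ± 0.19, adjusted p = 0.134) and H2-K1 at 1889 to 2686 CPM against 3523 to 5140.4 CPM (0.83 ± 0.21, adjusted p = 0.0767). H2-D1 stood at 3919 to 6063 CPM against 6404 to 7149 CPM (0.39 ± 0.20, adjusted p = 0.666). The immunoproteasome subunit Psmb8 stood at 154 to 339 CPM against 476 to 768 CPM (1.17 ± 0.28, adjusted p = 0.0583). The groups did not overlap for any of these 4 genes. Without 1 mouse, H2-K1 passed (B6→B6 mouse 5, adjusted p = 0.0442), as did Psmb8 (HLA→B6 mouse 3, 0.0108). The class Ib gene H2-Q7 (chr17:35439155-35443773), outside the list, stood at 348, 384, 535, 553 and 632 CPM against 989, 1221 and 1531 CPM and passed, with a log2 fold change of 1.29 ± 0.26 (adjusted p = 0.0200). T cells held 292 to 683 CPM and 707 to 816 CPM of it. Class I genes resemble each other, so its value is uncertain where reads are shared, and without B6→B6 mouse 1, 2 or 4 the call was lost (adjusted p between 0.0562 and 0.0692).

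Of 19 genes of the IFN-γ response, 8 were tested and 1 passed, with a median log2 fold change of 1.24 and all 8 above 0. Of all genes tested, 0.596% passed higher and 54.2% had a log2 fold change above 0. Gbp2 (chr3:142620602-142638008), a guanylate-binding protein of cell defense, stood at 99.4, 0, 117, 97.6 and 63.2 CPM against 259, 709 and 362 CPM. Its log2 fold change was 2.17 ± 0.39 (edgeR adjusted p = 0.00842, and 0.0923 without B6→B6 mouse 4). T cells of the HLA→B6 mice held 52.99 to 108 CPM, less than cluster 1 in each of those mice. Gbp7, Iigp1 and Ifi47, with log2 fold changes of 1.23, 1.97 and 1.24, did not pass (adjusted p = 0.257, 0.517 and 0.163). Without HLA→B6 mouse 3 these 3 passed (adjusted p = 0.0268, 0.00539 and 0.0308), as did Tgtp2 (0.0402).

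Of 11 type I interferon genes, 4 were tested and 0 passed by edgeR, with 2 at an unadjusted p under 0.05. Without HLA→B6 mouse 3, Isg15 passed (adjusted p = 0.0319). The gene of the highest level, Bst2, which tethers virus particles to the cell, stood at 461 to 1201 CPM against 797 to 1576 CPM (0.64 ± 0.28, adjusted p = 0.602). Ifi27l2a (chr12:103442167-103443680), an interferon-induced gene outside the lists, stood at 0, 0, 13.04, 36.8 and 0 CPM against 141, 345 and 155 CPM. Its log2 fold change was 2.79 ± 0.49 (adjusted p = 0.00842, and 0.203 without HLA→B6 mouse 2), and it was 4.43 without B6→B6 mouse 4 (adjusted p = 0.0265), which held 20 of the 21 B6→B6 UMIs. T cells held more of it than cluster 1, at 334 to 412 CPM and 547 to 744 CPM.

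C1qa, Apoe and Igkc rose in HLA→B6. They were set together after they had passed and belong to no cell type marker list used here. C1qa (chr4:136895917-136898803), a chain of complement C1q made by macrophages, was at 0 in all 5 B6→B6 mice and at 235, 591 and 155 CPM in the HLA→B6 mice (edgeR adjusted p = 0.0438). Pooled over each group, 125 UMIs of 545807 against 0 of 840849 give a level at least 64.2-fold higher, with the 0 set to 3 counts over the group. B6→B6 mouse 4 holds most of that total, and without it the 0 of 156908 UMIs gives a level at least 11.98-fold higher. In the HLA→B6 mice, 73 of 604 cells (12.1%) had a C1qa UMI. T cells of those mice held 0 to 8.48 CPM and cluster 1 120.2 to 417 CPM without TMM scaling. The call was lost without B6→B6 mouse 2 or 4 or HLA→B6 mouse 1 (adjusted p between 0.0630 and 0.170).

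Apoe (chr7:19696109-19699188), apolipoprotein E, which lung macrophages make, stood at 0, 0, 0, 95.8 and 0 CPM against 975, 1851 and 817 CPM. Its log2 fold change was 4.33 ± 0.60 (adjusted p = 0.00842), and it passed in each of the 8 fits that left out 1 mouse. The size of that change rests on B6→B6 mouse 4, which held all 52 Apoe UMIs of its group, and without it the fitted value was 9.53 on the log2 scale, against a group at 0. T cells of the HLA→B6 mice held 2.11 to 50.9 CPM, less than cluster 1 in each. Cells that are not structural held 343 to 1722 CPM in the B6→B6 mice and 4566 to 8671 CPM in the HLA→B6 mice. The immunoglobulin gene Igkc (chr6:70726435-70726966) stood at 0, 0, 0, 88.4 and 0 CPM against 2553, 2176 and 569 CPM, with 27.6 to 351 CPM in T cells of the HLA→B6 mice. Its log2 fold change was 5.001 ± 0.80 (adjusted p = 0.0467), and the call was lost without B6→B6 mouse 1, 2, 4 or 5 or HLA→B6 mouse 1 or 2 (adjusted p between 0.105 and 0.243). All 48 Igkc UMIs of the B6→B6 group lay in mouse 4, and without it the fitted log2 value was 10.08, again against a group at 0. Apoe and Igkc are on the list given to SoupX, and 4 of the 5 B6→B6 mice are at 0 for both. The part of free RNA, or of its removal, in these 3 genes was not tested.

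**Figure D5:**
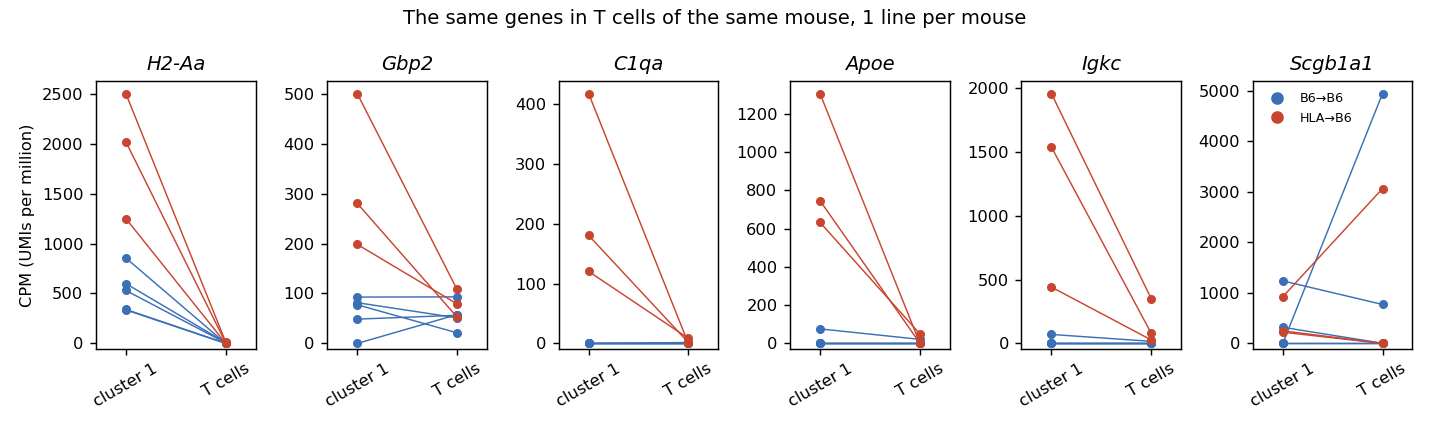
Level (CPM without TMM scaling, linear axes from 0) of 5 genes that passed the test and of Scgb1a1 in cluster 1 and in T cells of the same mouse, 1 line per mouse (blue, B6→B6; red, HLA→B6). H2-Aa, Gbp2, C1qa, Apoe and Igkc are higher in cluster 1 than in T cells in all 3 HLA→B6 mice, whereas for Scgb1a1 T cells exceed cluster 1 in 1 HLA→B6 and 1 B6→B6 mouse.

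Few other genes of those cell types could be tested. Ctss was the 1 gene of the macrophage list above the filter, at 0 to 23.9 CPM against 212 to 1142 CPM (4.78 ± 0.91, edgeR adjusted p = 0.0620). It passed without HLA→B6 mouse 1 (0.00415), 2 (0.000875) or 3 (0.0319). The hemoglobin gene Hba-a1 stood at 0 to 193 CPM against 1004 to 5111 CPM (4.56 ± 1.02, adjusted p = 0.189). Of the epithelial list, the secretoglobin Scgb3a1 could be tested and did not pass (1.40 ± 0.79, adjusted p = 0.763), except without HLA→B6 mouse 3 (0.0401). No gene of the T cell, B cell, neutrophil, fibroblast, pericyte and smooth muscle, platelet or lymphatic lists was above the filter.

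The other genes that rose were of iron storage, the cell cycle and the mitochondrion. Fth1 (chr19:9980598-9985098) stood at 1243, 1228, 1330.1, 2054 and 759 CPM against 3071, 5169.9 and 2866 CPM, a log2 fold change of 1.41 ± 0.27 (edgeR adjusted p = 0.0139). T cells held 276 to 1477 CPM and 1013 to 1490.3 CPM. Its call was lost without B6→B6 mouse 1 or 2 or HLA→B6 mouse 2 (adjusted p between 0.0562 and 0.185), and Ftl1, the ferritin light chain, did not pass (0.87 ± 0.23, adjusted p = 0.0833). Ccnd1 (chr7:144929931-144939925), cyclin D1, stood at 49.7, 230.3, 169.5, 155 and 189.6 CPM against 339, 512 and 352 CPM, a log2 fold change of 1.34 ± 0.31 (adjusted p = 0.0495). Its call was lost without B6→B6 mouse 1, 2, 3 or 4 or HLA→B6 mouse 1 or 2 (adjusted p between 0.0850 and 0.338). Of the 7 genes of the cell cycle list, Stmn1 could be tested and did not pass (-0.16 ± 0.27, adjusted p = 0.988).

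The mitochondrial gene mt-Nd1, a subunit of complex I, stood at 1491, 1919, 3195, 2449.8 and 2718 CPM against 4196, 9532 and 4407 CPM, a log2 fold change of 1.33 ± 0.28 (edgeR adjusted p = 0.0368). T cells held 1089 to 1961 CPM and 1840.5 to 2639 CPM. Of 12 mitochondrial genes tested, 11 had a log2 fold change above 0, beside 54.2% of all genes tested. The part of the mitochondrial shares given above was not tested. The call was lost without B6→B6 mouse 1, 2, 4 or 5 or HLA→B6 mouse 2 (adjusted p between 0.0806 and 0.384). Of 84 ribosomal protein genes tested, 0 passed, with 1 at an unadjusted p under 0.05.

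The genes that fell were Igfbp7 and Junb. Igfbp7 (chr5:77349240-77408041) stood at 1839, 2149, 2086, 1308 and 2908 CPM against 697, 1192 and 786 CPM, a log2 fold change of -1.17 ± 0.27 (edgeR adjusted p = 0.0495). The 25 cells rich in Fabp4 held 173 UMIs of it, 13.0% of those in the cluster, and without them the log2 fold change was -0.97 (adjusted p = 0.366). The call was also lost without B6→B6 mouse 1, 2 or 3 or HLA→B6 mouse 1 or 3 (adjusted p between 0.0755 and 0.349). Junb (chr8:84974484-84978718), an immediate early transcription factor, stood at 696, 1535, 352, 1243 and 1327 CPM against 316, 148 and 155 CPM, a log2 fold change of -2.19 ± 0.44 (adjusted p = 0.0429). T cells held 786 to 2139 CPM and 644 to 1203 CPM. Its call was lost without B6→B6 mouse 1, 2, 4 or 5 or HLA→B6 mouse 2 or 3 (adjusted p between 0.0562 and 0.185).

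Of 16 immediate early and stress genes, 10 were tested and Junb passed, beside 0.0852% of all genes tested that passed lower. The groups did not overlap for 3, all lower, beside 1.45% of all genes tested. The median log2 fold change of the list was -0.996. Jun, the partner of Junb in dimers, stood at 1011 to 3300.4 CPM against 581 to 931 CPM (-1.34 ± 0.32, edgeR adjusted p = 0.0583). It passed without B6→B6 mouse 3 (0.0176) or 5 (0.0160) or HLA→B6 mouse 3 (0.0401). Klf2, a transcription factor induced by blood flow, stood at 3300.4 to 4577 CPM against 2560.3 to 4201 CPM (-0.15 ± 0.22, adjusted p = 0.988), and the groups overlapped.

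Endothelial identity genes did not pass between the groups. In the pan-endothelial list 11 genes were tested and 0 passed by edgeR, with 2 at an unadjusted p under 0.05 and a median log2 fold change of -0.24. Pecam1 stood at 1449.6 to 1919 CPM against 1639 to 2059 CPM (0.11 ± 0.21, adjusted p = 0.998) and Cldn5 at 2609.6 to 5423 CPM against 2698 to 5008 CPM (0.06 ± 0.25, adjusted p = 0.999). Of 8 general capillary genes 7 were tested, 0 passed and 0 had an unadjusted p under 0.05, with a median of -0.37. Gpihbp1 stood at 2149 to 3223 CPM against 2193 to 2449 CPM (-0.17 ± 0.21, adjusted p = 0.960) and Plvap at 795 to 2908 CPM against 1055 to 1448 CPM (-0.37 ± 0.34, adjusted p = 0.910). Of the aerocyte, artery and vein lists 3, 7 and 3 genes were tested, 0 passed, and 0, 3 and 0 had an unadjusted p under 0.05.

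Signaling lists had the same outcome by edgeR. Of the BMP9 and ALK1 list 8 genes were tested, 0 passed and 3 had an unadjusted p under 0.05. All 8 had a log2 fold change below 0 (median -0.52), whereas 54.2% of all genes tested were above 0. In this list 2 genes had groups that did not overlap, both lower, beside 1.45% of all genes. The target Id3 stood at 844 to 2982 CPM against 965 to 1521 CPM (-0.75 ± 0.29, adjusted p = 0.469), and the groups overlapped. Of the VEGF and angiopoietin list 6 genes were tested and of the leukocyte adhesion list 5, and none passed or had an unadjusted p under 0.05. Of the vascular tone and coagulation list 8 were tested and 0 passed, with 1 at an unadjusted p under 0.05, and of the fatty acid list 5 were tested and 0 passed, with 2 under it. Of the last list, Fabp5 passed without B6→B6 mouse 5 (adjusted p = 0.0281) or HLA→B6 mouse 3 (0.0159).

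Of the 3 marker genes, 2 could be tested and neither passed by edgeR. Fabp4 stood at 746, 691, 143, 1956 and 0 CPM against 65.9, 118 and 10.3 CPM (-3.67 ± 1.22, adjusted p = 0.478). Rbp7 stood at 298, 384, 39.1, 151 and 0 CPM against 4.71, 29.5 and 0 CPM (-3.70 ± 0.89, adjusted p = 0.0583), and it passed without B6→B6 mouse 3 (0.00632) or 5 (0.0281) or HLA→B6 mouse 2 (0.0437). The groups overlapped for both, with B6→B6 mouse 5 at 0.

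The effect of the group on cluster 1 was then set against that on cluster 0, the cluster most like it and from the same mice, in a model with the mouse as a block. Of 2994 genes tested, 0 passed by edgeR (0%), and 96 had an unadjusted p under 0.05. DESeq2 called 0 and had 58 at an unadjusted p under 0.05. Without HLA→B6 mouse 3, edgeR called 4. In simulated sums of these depths, drawn with no mouse or cluster effect, 171 of 200 genes with a 4-fold difference of effects were recovered (85.5%). Of the calls, 2.84% fell on unchanged genes, and with no gene changed there was 1 call. Smaller differences were not simulated. The border between the clusters was drawn from the same counts.

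In cluster 0 alone 25 of 3645 genes passed by edgeR (0.686%), 20 higher (0.549%) and 5 lower (0.137%). Among them were H2-DMa (log2 fold change 1.58, adjusted p = 0.00527), Gbp2 (log2 fold change 2.15, adjusted p = 0.00376), Tap1 (log2 fold change 1.44, adjusted p = 0.0198) and Ccnd1 (log2 fold change 1.42, adjusted p = 0.0198), and Igkc passed too (adjusted p = 0.000616), at 0 in all 5 B6→B6 mice and 129.7 to 355 CPM in the HLA→B6 mice without TMM scaling. H2-Aa did not pass in cluster 0 (log2 fold change 1.38, adjusted p = 0.178). The difference of the effects, cluster 1 minus cluster 0 on the log2 scale, was 0.38 for H2-Aa (95% interval from -0.19 to 0.95), 0.65 for H2-DMa (95% interval from -0.11 to 1.40), -0.24 for Gbp2 (95% interval from -1.06 to 0.59) and -0.84 for Junb (95% interval from -1.91 to 0.23). The intervals of all 16 genes that passed in cluster 1 include 0, and these 4 reach differences of 0.5 or more, so equal effects are not shown. Those of Apoe (from -49.9 to 52.1) and Igkc (from -21.0 to 18.4) are too wide to be informative, and C1qa gave no usable interval. Of 84 genes tabulated, 6 had an interval that excludes 0 (Cd74, H2-Eb1, Isg15, Fabp4, Prss23 and Vwf), all with an adjusted p near 1. The difference was 0.67 for Cd74 (95% interval from 0.15 to 1.19) and 0.77 for H2-Eb1 (95% interval from 0.10 to 1.44), with unadjusted p = 0.0129 and 0.0250 by edgeR, and -2.62 for Fabp4 (95% interval from -5.22 to -0.01). In cluster 2 alone 6 of 1643 genes passed (0.365%). Of the 16 genes of cluster 1, the 6 tested there (Fth1, Ccnd1, mt-Nd1, H2-Q7, Igfbp7 and Junb) did not pass.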

How the data were processed

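Single cells of 8 left lung grafts were measured by 10x Genomics 3′ sequencing. The authors deposited whole UMI counts per gene and cell (17921 genes, 20778 cells), made with Cell Ranger on mm10. They clustered cells with Seurat and state that free RNA was removed with SoupX. Counts were joined to the deposited table of cells, which gives mouse and cluster. HLA→B6 mice are numbered after that table, and the names of their cells carry other numbers. Depth in cluster 1 ran from 362 to 8584 UMIs per cell. Floors (3 counts) cover counting error only. The intervals of the difference of effects come from the same edgeR fit as their p-values and include the spread between mice.

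Shares of cells with a UMI are the expected values after thinning to 500 UMIs, for the 1159 cluster 1 cells (86.0%) with at least that many, averaged over mice with equal weight; the shallower cells are left out. Counts were summed per mouse with at least 10 cells, filtered by filterByExpr (minimum count 10), scaled by TMM and tested with edgeR's quasi-likelihood F test (robust) with Benjamini-Hochberg adjustment over all genes tested, threshold 0.05. Shares of cells were compared by exact permutation. Doublets were marked by Scrublet per library (expected rate 0.06). Groups are those of the labels.

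The members and gene lists were chosen with earlier results of these data known. Genes named for identity are the 10 largest differences in each direction, of one sign in all 8 mice, from cluster 0 and from cluster 2 (1 of them is not reported here); between groups, all genes past the threshold and, from the lists, up to 4 others of the highest level. Genes of the 25 cells rich in Fabp4, and Ftl1, were named after their values were seen. Gene coordinates are those of GENCODE vM21 (GRCm38).

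Alternatives were DESeq2, no filter, at least 20 cells, cells of at least 500 UMIs, no cells that share a barcode, no free RNA genes, no doublets, each mouse left out, the replicate or linked set as a block, clusters 0, 1 and 2 summed, an exact Mann-Whitney test, other denominators, and thinning to 300 UMIs or none. Leaving out the 25 cells rich in Fabp4 was added after seeing the data. Tested on simulated data, edgeR recovered 181 of 200 genes changed 4-fold between the groups in cluster 1 (90.5%), with 2.69% of its calls on unchanged genes and 0 calls with no gene changed. Versions were edgeR 4.0.16, DESeq2 1.42.0 and limma 3.58.1 in R 4.3.3, and scanpy 1.11.5, pandas 2.3.3, scipy 1.17.1 and numpy 2.4.6 in Python 3.11.15, with matplotlib 3.10.9 for figures.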

Additional observations from a re-analysis of the deposited data

Results flagged for a closer look

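Of 26 values checked for a B6→B6 mouse far from the other four B6→B6 mice (Dixon's criterion at the 95% level, which flags about 1 in 20 by chance), 5 were marked. B6→B6 mouse 4 stood apart with a share of cluster 1 among structural cells of 52.9%, with Igkc at 88.4 CPM and Apoe at 95.8 CPM where the others were at 0, and with Scgb1a1 in 37.0% of cluster 1 cells at 500 UMIs. B6→B6 mouse 5 stood apart with H2-Ab1 at 126 CPM, which rests on 2 UMIs. Mouse 4 is also the deepest of the B6→B6 mice in cluster 1, and the part of depth in these values was not tested.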

How the results depend on the processing

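The number of genes that passed between the groups, 16, was 14 with DESeq2, 11 in cells of at least 500 UMIs, 13 without doublets and 11 without the 25 cells rich in Fabp4. It was 86 with no filter on low counts, 0 with at least 20 cells per mouse (5 mice, 213 genes at an unadjusted p under 0.05), 6 without cells that share a barcode (7 mice), 8 without free RNA genes, 26 with the linked set as a block and 95 with clusters 0, 1 and 2 summed. With each mouse left out it ran from 6 to 51. None of the 16 genes changed direction in any alternative. H2-DMa passed in 18 of 19 alternatives, Gbp2 in 17 of 19, H2-Aa in 16 of 18, Apoe and Ifi27l2a in 15 of 18 each, and Ccnd1 in 4 of 19. The cause of these changes was not tested beyond the fewer mice, cells or genes that each alternative uses.

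The replicate numbers gave no clear pairing of the mice. The correlations of deviations between mice of the same number were 0.0755, 0.0491 and -0.0351, the first the highest of all pairs. B6→B6 mouse 3 correlated more with HLA→B6 mouse 1 (0.0595) than with its own number. The other numbers in the names of HLA→B6 cells were not examined, so a pairing is not excluded. With the replicate block 29 genes passed, 12 of them among the 16.

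The difference of effects between clusters 1 and 0 gave 3 genes with at least 20 cells per mouse and, with each mouse left out, 0 to 4 genes. The difference in the share of structural cells, 4.12 percentage points, was -0.237 within the sets of linked libraries and from 0.360 to 12.5 with each mouse left out. Over clusters 0, 1 and 2 it was -3.11 within the sets and from -4.12 (without HLA→B6 mouse 3) to 15.05, with -0.956 without B6→B6 mouse 1. The mean share of cluster 1 cells with Gpihbp1 was 39.7% at 300 UMIs and 68.2% without thinning, and that with Car4 13.2% without thinning.

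Depth limits the B6→B6 side most, since 3 of its 5 mice gave under 20 cells each.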
